A study of Mus musculus with 6 samples.

Results

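Galectins are small lectins that bind beta-galactoside sugars on glycoproteins and glycolipids, and they act both outside the cell and in the cytosol. The genes described here are Lgals1, Lgals3, Lgals7, Lgals8 and Lgals9, together with Lgals3bp, whose product is a secreted glycoprotein that binds galectin 3. They are 6 of 35905 annotated genes. They were selected on their summed counts and TPM in the comparison of the lines, in which Lgals7 was seen to be switched on in LM2. Since that contrast chose them, it is given below as a description of these genes, with no test.

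The study compared the transcriptomes of EO771-tdT-Parental and EO771-tdT-LM2, called Parental and LM2 here, with 3 RNA-seq libraries of each. EO771 is a mouse mammary tumour line, and the labels give both lines as WT breast cancer cells. All were kept in RPMI 1640 with 10% fetal bovine serum and harvested after 48 h at about 75% confluence. The labels do not give how LM2 was obtained, whether it is a clone, or how it relates to the parental cells beyond its name. They do not say that the replicates were separate cultures, and the p-values therefore reflect the spread among these libraries alone, which may be technical. Both names carry the tag tdT, and the titles of the Parental libraries carry a further tag, Ac6, which the labels do not explain and the LM2 titles lack.

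Galectins 1 and 7 are prototype galectins with a single sugar-binding domain. Galectin 3 is a chimera that joins one such domain to a flexible tail, and galectins 8 and 9 are tandem-repeat proteins with a linker between a pair of domains. Galectins lack a secretion signal and leave the cell by an unconventional route. In tumours they are studied for cell adhesion, survival and interaction with immune cells.

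The libraries held 33922699 to 45849019 estimated counts. Of 13247 genes tested, 8272 (62.4%) passed an adjusted p of 0.05 by edgeR's quasi-likelihood test, 4156 (31.4%) higher and 4116 (31.1%) lower in LM2. Libraries of the lines did not overlap in CPM, read counts scaled to library size, for 8879 tested genes (67.0%), with LM2 the higher line in 33.4% and the lower in 33.6%. So many genes differed that a call for a single gene is close to the usual outcome here. The labelled cell type was checked against marker lists. Krt8, a keratin of simple epithelia, stood at 414 to 427 CPM in Parental and 561 to 579.8 CPM in LM2, while its partner keratin Krt18 did not exceed 0.24 CPM and Cdh1, the epithelial cadherin, did not exceed 0.25 CPM in any library. For Epcam, an epithelial adhesion protein, the mean was 0.154 ± 0.0503 CPM among Parental libraries and 14.97 ± 0.360 CPM among LM2 libraries (SD, n = 3 each). Krt8 and Epcam rose, and Erbb2, a receptor tyrosine kinase gene of the same list, fell by 0.36 on the log2 scale (edgeR, adjusted p = 7.41e-13, 4.94e-19 and 6.54e-08). The 6 fibroblast markers summed to 991 to 1008 CPM in Parental and 1760 to 1859 CPM in LM2, most of it Col1a1, with Dcn and Lum near 0, and 3 of the 4 tested rose. The 8 leukocyte markers summed to 4.42 to 4.66 CPM in Parental and 3.47 to 4.06 CPM in LM2, with Adgre1 at 0 in all libraries. Of the 2 tested, Lyz2 fell from 2.51 ± 0.162 to 0.831 ± 0.0931 CPM and Cd68 rose from 1.75 ± 0.249 to 2.68 ± 0.247 CPM (edgeR, adjusted p = 9.39e-07 and 0.00539). The part of these marker changes in the results below was not tested. Endothelial markers summed to at most 4.78 CPM, most of it Pecam1 (3.49 ± 0.524 and 3.59 ± 0.352 CPM, not passing the test), while Cdh5, the endothelial cadherin, rose from 0.180 ± 0.102 to 0.668 ± 0.0967 CPM (edgeR, adjusted p = 0.000528). Lung epithelial markers summed to at most 0.33 CPM and adipocyte markers to at most 0.471 CPM. These are bulk libraries, in which fewer cells of a type and less RNA per cell cannot be told apart.

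The sequences that show how Lgals7, the member with the largest difference, is set apart from the most abundant member are given first. The third exon of Lgals7-201 lies within its coding sequence at chr7:28865534-28865735, plus strand, and the third exon of Lgals1-201 lies within its coding sequence at chr15:78929633-78929804, plus strand. Both were read from GENCODE M21 on GRCm38, while the deposited values were made on GRCm39, so these coordinates are those of the annotation. This exon codes for most of the sugar-binding core of a prototype galectin. Capitals mark the longest run of bases shared with a transcript of another gene of the group.
Lgals7 exon: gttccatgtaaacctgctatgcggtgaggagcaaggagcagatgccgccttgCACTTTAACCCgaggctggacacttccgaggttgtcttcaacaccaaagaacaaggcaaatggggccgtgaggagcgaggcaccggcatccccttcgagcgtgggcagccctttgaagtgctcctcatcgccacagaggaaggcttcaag
Lgals1 exon: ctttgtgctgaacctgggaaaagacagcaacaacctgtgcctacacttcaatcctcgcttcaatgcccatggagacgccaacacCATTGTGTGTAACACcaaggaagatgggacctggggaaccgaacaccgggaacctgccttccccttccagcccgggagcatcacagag
The run shared by the Lgals7 exon was 11 bases long, with Lgals8-203, and that of the Lgals1 exon 15 bases, with Lgals3-201. Aligned to each other, the exons were identical at 67.5% of 160 aligned bases. kallisto assigns reads by shared words of 31 bases, and none of the 894 such words of Lgals7 transcripts occurs in a transcript of another gene. The same held for Lgals1, Lgals3, Lgals9 and Lgals3bp. Of the 3764 words of Lgals8, 5.53% also occur in other genes, most often Heatr1, and none in another of the 6 genes.

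On the TPM scale, which corrects for transcript length and allows genes to be compared, Lgals1 was the most abundant in both lines. Its mean was 1644 ± 33.7 TPM in Parental and 1883 ± 21.2 TPM in LM2 (SD, n = 3 each), which ranked it 105th and 86th among 21213 and 21118 genes with any TPM. Lgals3 followed with 468 ± 25.2 and 781 ± 6.52 TPM, at ranks 311 and 174. The 2 genes made up 72.8% and 20.7% of the summed TPM of the group in Parental and 63.8% and 26.5% in LM2. Lgals9 held 83.9 ± 2.66 TPM in Parental and 89.3 ± 8.28 TPM in LM2, and Lgals8 held 19.7 ± 1.03 and 24.99 ± 0.792 TPM. Lgals3bp stood at 40.4 ± 1.04 and 87.5 ± 9.76 TPM. Lgals7 was last in Parental at 0.426 ± 0.265 TPM, rank 12530, and reached 84.3 ± 6.002 TPM in LM2, rank 2061.

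In Parental, no neighbours in this order overlapped between libraries. In LM2, Lgals9, Lgals3bp and Lgals7 could not be put in order: Lgals9 spanned 80.7 to 97.2 TPM, Lgals3bp 76.98 to 96.3 TPM and Lgals7 77.6 to 89.1 TPM. Lgals8 was below all of them at 24.4 to 25.9 TPM. The TPM of the 6 genes summed to 2257 ± 49.7 in Parental and 2950.0 ± 29.1 in LM2, a ratio of 1.31. Lgals7 made up 0.019% of the sum in Parental and 2.86% in LM2.

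**Figure D1:**
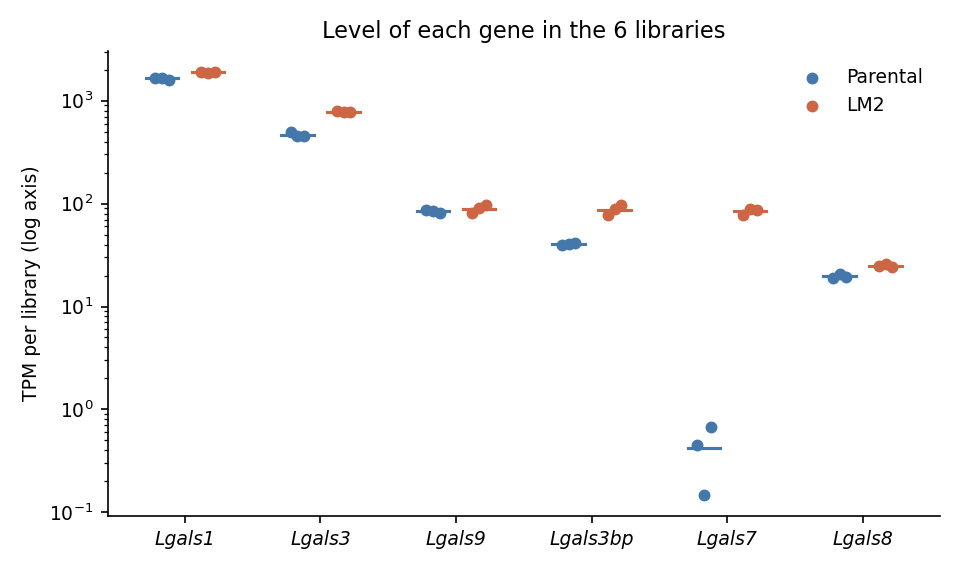
Level of the 6 genes in TPM (log axis) in the 3 Parental (blue) and 3 LM2 (orange) libraries, with a line at each mean. Lgals7 lies between 0.149 and 0.677 TPM in Parental and between 77.6 and 89.1 TPM in LM2, beside Lgals9 and Lgals3bp.

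Between the lines, 5 of the 6 genes were called higher in LM2 and 0 lower, against 62.4% of all tested genes called in either direction, and the same 5 did not overlap between lines, against 67.0% in either direction and 33.4% with LM2 higher. Since the contrast chose them, nothing is read from these counts. The median log2 fold change of the 6 genes was 0.55, and that of all tested genes 0.00. All 6 passed the filter on low counts. Lgals7 passed it through its LM2 libraries alone.

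Among the prototype galectins, Lgals7 encodes a galectin best known from keratinocytes of stratified epithelia. It had 4, 2 and 4 estimated counts in Parental replicates 1 to 3 and 721, 794 and 873 in LM2 replicates 1 to 3. These correspond to 0.0879, 0.0551 and 0.0991 CPM in Parental and 20.9, 23.5 and 22.9 CPM in LM2. Every LM2 library lay far above every Parental library, and the lowest LM2 library had more than 20 CPM. The fitted log2 fold change was 8.04 ± 0.15 (SE), 264-fold. As the Parental level rests on 10 counts in all, against 2388 in LM2, the ratio of the summed counts, scaled for library size, was 274 with a 95% interval of 149 to 572 that covers counting error only. In the authors' deposited table, whose base and direction were read from its closeness to the values computed here, Lgals7 stands at 7.13. Of all tested genes, 11 had a log2 fold change at or above that of Lgals7, itself included.

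Lgals1, the prototype galectin of many mesenchymal and tumour cells, had 613, 619.6 and 599.5 CPM in Parental replicates 1 to 3 and 695, 664.5 and 700.6 CPM in LM2. The lowest LM2 library was above the highest Parental library by a small margin. The log2 fold change was 0.17 ± 0.03, or 1.12-fold.

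The chimera galectin Lgals3, which binds surface glycoproteins and also damaged membranes inside the cell, had 325, 316 and 306 CPM in Parental and 553, 546 and 550.6 CPM in LM2. The lines did not overlap and the LM2 libraries lay within 8 CPM of one another. The log2 fold change was 0.80 ± 0.03, or 1.74-fold, a value exceeded by 8.59% of tested genes. On the TPM scale the ratio of means was 1.67.

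Among the tandem-repeat galectins, Lgals8, which marks damaged endosomes for autophagy, had 22.1, 23.3 and 22.4 CPM in Parental and 26.7, 28.3 and 28.2 CPM in LM2, with no overlap and a log2 fold change of 0.30 ± 0.05. Lgals9, a ligand of the immune receptor TIM-3, had 77.1, 75.4 and 72.6 CPM in Parental and 71.4, 78.4 and 85.1 CPM in LM2. The LM2 libraries spanned the whole Parental range, and the log2 fold change of 0.06 ± 0.06 was no larger than its error. It was 0.12 without LM2 replicate 1 and -0.01 without LM2 replicate 3.

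Lgals3bp, the secreted galectin 3 binding protein, had 56.1, 57.96 and 58.4 CPM in Parental and 108, 120.5 and 135 CPM in LM2. The lines did not overlap, and the LM2 libraries were spread more widely than the Parental ones. The log2 fold change was 1.08 ± 0.09, or 2.11-fold, and the authors' deposited table gives 1.08. LM2 replicate 1 was the lowest and LM2 replicate 3 the highest for Lgals9 and Lgals3bp. The same pattern of libraries, looked for after the values were seen, was found in 5 of 8 interferon reporter genes (Stat2, Irf7, Irf9, Ifit1 and Ifit3) and in 18.3% of all tested genes. Its part in the differences was not tested.

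**Figure D2:**
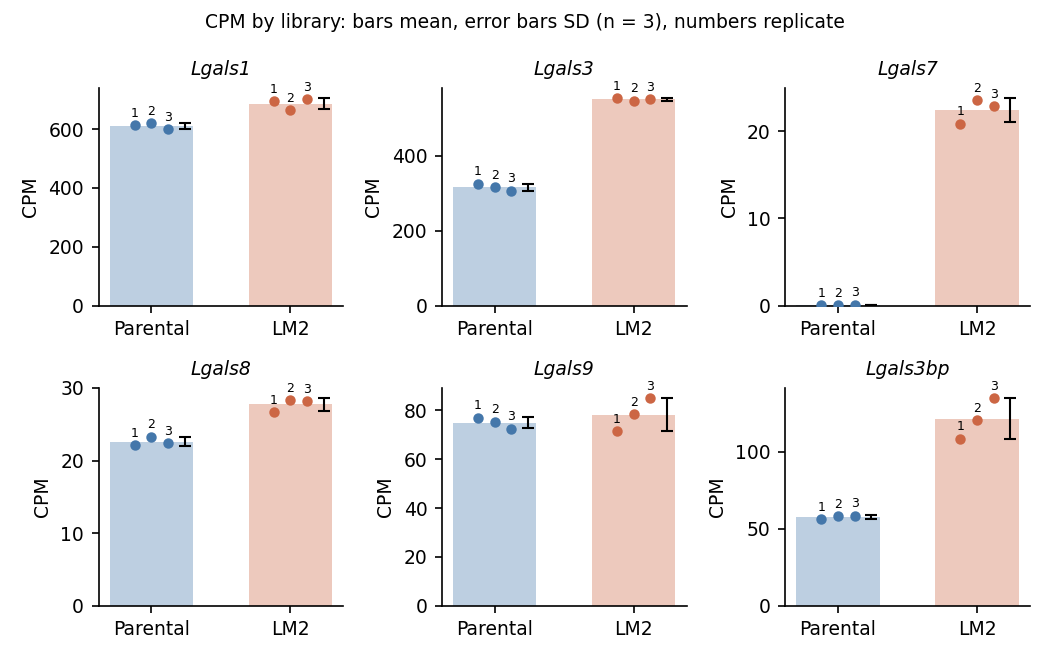
CPM of each of the 6 genes by line, on linear axes starting at 0; bars are means of 3 libraries, error bars beside them the SD, and numbered points the replicates. Lgals9 overlaps between lines, and the other 5 genes do not.

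The split of each gene's counts between its annotated transcripts is a measure that the choice of genes did not use. Shares were compared for 11 transcripts and 1 sum of transcripts, in the 5 genes with at least 100 counts in every library, with a minimum share of 5% in a line that was set after the data were seen. With 3 libraries against 3 the exact permutation test (two-sided) cannot go below p = 0.1. Libraries did not overlap for 2 of these 12 shares, Lgals3-201 and Lgals8-202, and both had this smallest p, with a Benjamini-Hochberg adjusted p of 0.545 over the 12.

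Lgals3-201 took 30.3, 29 and 31% of the Lgals3 counts in Parental and 33.1, 33 and 31.6% in LM2, 2.45 percentage points more on average. Lgals3-204, which held most of the counts, took 65.1 ± 1.81% and 63.8 ± 0.581%, and overlapped. On shares of deposited TPM, the difference of Lgals3-204 changed sign, to 2.52 percentage points higher in LM2. For Lgals1, 20.5 ± 1.05% of the counts in Parental and 19.4 ± 1.85% in LM2 went to Lgals1-202, which is annotated as a target of nonsense-mediated decay.

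For Lgals8, the transcript Lgals8-202 took 8.07, 0.00422 and 0.038% of counts in Parental and 23.4, 18.6 and 17.8% in LM2. Lgals8-203 took 14.5 ± 9.49% and 1.86 ± 3.23%. Both are coding transcripts of like length. Summed, a step added after their values were seen, they took 13.2, 14.3 and 24.1% in Parental and 28.9, 18.6 and 17.8% in LM2, and the lines overlapped (exact permutation p = 0.5). How kallisto divided reads between these 2 was not tested.

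Alternative splicing of the tandem-repeat galectins was followed at 2 places. They are printed from GENCODE M21 on GRCm38, on the minus strand, with capitals for the alternative bases and 15 bases of the transcript in lower case on either side. In Lgals9-203 an exon of 93 bases at chr11:78969714-78969806 lengthens the linker between the sugar-binding domains, and in Lgals8-208 an exon is extended by 27 bases at chr13:12453258-12453284. Both lie within the coding sequence.
Lgals9 linker exon: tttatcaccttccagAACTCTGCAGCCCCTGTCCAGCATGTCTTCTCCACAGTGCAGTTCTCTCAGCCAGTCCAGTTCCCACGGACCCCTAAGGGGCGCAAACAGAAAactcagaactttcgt
Lgals8 exon extension: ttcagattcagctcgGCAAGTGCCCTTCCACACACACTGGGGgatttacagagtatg
The long form Lgals9-203 took 7.47, 10.7 and 5.87% of Lgals9 counts in Parental and 6.34, 7.23 and 5.29% in LM2, and Lgals9-202, without the exon, took 91.6 ± 2.49% and 93.5 ± 0.941%. The transcript Lgals8-208 took 20.1 ± 2.43% and 17.9 ± 2.37%. For Lgals9-203 and Lgals8-208 the libraries of the lines overlapped. Whether other Lgals8 transcripts hold the extension was not checked, so the share given is that of Lgals8-208 alone. Lgals7 had too few Parental counts to compare. In LM2 its counts went to Lgals7-201 (77.3 ± 1.11%) and Lgals7-203 (22.6 ± 1.19%).

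**Figure D3:**
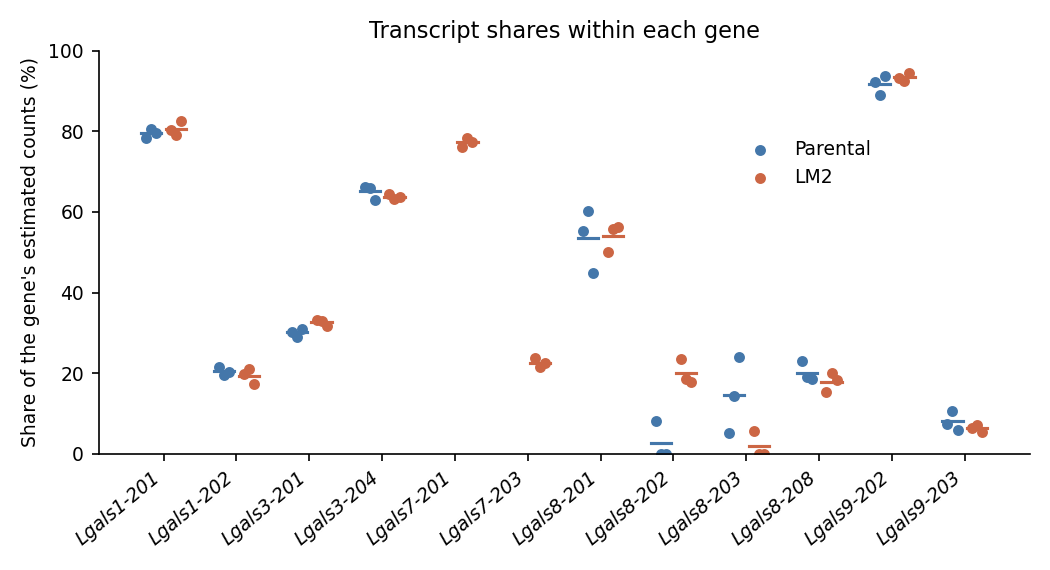
Share of each gene's estimated counts (%) taken by its main transcripts in Parental (blue) and LM2 (orange) libraries, with a line at each mean; Lgals7 is shown for LM2 alone. Lgals3-201 and Lgals8-202 do not overlap between lines, while Lgals9-203 and Lgals8-208 do.

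RefSeq promoters (GRCm38.p6), from 250 bases before to 50 after a gene's start, were found for 5 of the 6 genes. A set of 10 short motifs, picked after the data were seen, was searched on both strands. For Lgals7 and Lgals9, the part of the window before the first exon annotated in it is shown because one gene had the largest and the other the smallest difference between lines. They lie at chr7:28864136-28864228, plus strand, and chr11:78984947-78985174, minus strand. The Lgals7 segment ends at the base before Lgals7-201 and is intronic in Lgals7-203, whose first exon lies further upstream. Capitals mark GGGCGG in the first and, on the opposite strand of the second, the core of an interferon-stimulated response element: GAAA, any 2 bases, then GAAA.
Lgals7 upstream segment: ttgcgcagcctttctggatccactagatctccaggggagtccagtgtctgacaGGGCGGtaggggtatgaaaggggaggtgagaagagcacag
Lgals9 upstream segment: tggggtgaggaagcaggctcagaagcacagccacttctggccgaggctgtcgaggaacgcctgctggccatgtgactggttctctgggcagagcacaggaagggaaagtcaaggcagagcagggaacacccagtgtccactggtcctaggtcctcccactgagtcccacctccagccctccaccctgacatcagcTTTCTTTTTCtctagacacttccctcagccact
The interferon element occurred 2 times in the whole Lgals9 window, 55 bases before and 15 bases after the start, and 3.44% of 32851 promoters hold it. It was not in the windows of the other 4 genes, Lgals3bp included. GGGCGG, held by 35.7% of promoters, was in those of Lgals3 and Lgals7. The motif TTC, any 4 bases, then GAA is held by 6.95% and occurred 2 times in that of Lgals3. CCAAT, held by 37.4%, was in those of Lgals3 and Lgals8. CC and GG with any 6 bases between, held by 73.3%, were in all 5. The other 5 motifs were in none of these windows. They were TTCNNNGAA (held by 8.3% of promoters), the TATA box TATAAA (13.6%), the E-box CACGTG (7.15%), the AP-1 motif TGANTCA (7.81%) and an E-box with 1 more base on each side, TCACGTGA (0.974%). A match is a run of letters and not a binding site.

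The genes on either side of Lgals7 on chromosome 7 differed far less. Lgals4, a galectin gene next to it, had 0.584 ± 0.153 CPM in Parental and 0.758 ± 0.174 CPM in LM2 (SD, n = 3 each) and did not pass the test. Capn12, a calpain gene on the other side, rose by 1.58 ± 0.42 on the log2 scale, from 0.198 ± 0.0878 CPM to 0.617 ± 0.150 CPM (edgeR, adjusted p = 0.00222). Ech1, an enzyme of fatty acid oxidation, rose by 0.15 ± 0.04 on the log2 scale and the actin crosslinker Actn4 by 0.26 ± 0.02 (edgeR, adjusted p = 0.00136 and 1.4e-09).

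The 5 named genes whose log2 CPM over the 6 libraries lay nearest to that of Lgals7, by Euclidean distance, were Pla2g5 (0.837), a secreted phospholipase, Snx18 (1.64), a sorting nexin, Epcam (1.66), Sncg (1.77), a synuclein, and Dpep1 (1.84), a membrane dipeptidase. All stood below 0.25 CPM in every Parental library. In LM2 they had means from 14.97 CPM (Epcam) to 32.5 CPM (Snx18), with Pla2g5 at 29.5 ± 0.807 CPM. The measure uses level and difference together, so it selects genes off in Parental and at a like level in LM2.

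Other galectin family genes were a list of 6. Lgals6 was not in the annotation, and Lgals12 and Grifin were below the filter with 2 counts per line each. Of the 3 tested, 1 was higher by the test and 0 lower. For comparison with this and the later lists, 62.4% of all tested genes passed, 31.4% higher and 31.1% lower. Lgalsl, a galectin-like gene, rose by 0.16 ± 0.03 on the log2 scale, from 80.3 ± 1.88 CPM to 89.9 ± 1.45 CPM (edgeR, adjusted p = 8.9e-05). Lgals2 had 0.301 ± 0.0890 CPM in Parental and 0.506 ± 0.0878 CPM in LM2 (adjusted p = 0.101).

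Galectins bind galactose-ended chains, so the genes that build them were listed. Of 28 genes, 24 were tested, 10 rose and 5 fell, with a median log2 fold change of 0.07 against 0.00 over all genes. B4galt1, which adds galactose to make the lactosamine that galectins bind, rose by 0.57 ± 0.02 on the log2 scale, from 173 ± 2.56 CPM to 255 ± 3.51 CPM (edgeR, adjusted p = 1.36e-14). B4galt2, of the same family, rose by 0.45 ± 0.03 and the mannosidase Man2a2, which trims N-glycans for branching, by 0.50 ± 0.04. The largest change among the list's tested genes was the rise of B3gnt7, by 2.16 ± 0.29 (edgeR, adjusted p = 1.2e-06). This gene stayed under 5 CPM, its mean moving from 0.417 ± 0.117 to 1.86 ± 0.448 CPM. C1galt1, which makes the core of mucin-type O-glycans, fell by 0.42 on the log2 scale, and B3gnt3, which extends such chains, by 0.41. B3gnt2, an extender of polylactosamine, fell by 0.09 (edgeR, adjusted p = 0.0257), a call lost with DESeq2 (adjusted p = 0.0685) and without Parental replicate 1 or 2 or LM2 replicate 1 or 2. The list's falls numbered 3 with DESeq2, 3 without Parental replicate 1 and 2 without LM2 replicate 2. Its rises numbered 9, 8 and 9 in the same settings. Slc35a2 and Gcnt1, counted among the rises, each lost their calls in some settings. Man2a1 and B4galt5 did not pass and had log2 fold changes of 0.02 ± 0.03 and 0.04 ± 0.03.

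Sialic acid added to galactose can block or permit binding by particular galectins. Of 16 genes in the list of sialyl caps, 12 were tested, 5 rose and 5 fell, with a median of 0.01. Neu1, a lysosomal sialidase, rose by 0.63 ± 0.06 on the log2 scale, the sialyltransferase St3gal3 by 0.62 ± 0.06 and the Golgi transporter of activated sialic acid Slc35a1 by 0.40 ± 0.06. Cmas, which activates sialic acid, fell by 0.26, St6gal1, whose alpha-2,6 caps reduce galectin 1 binding, by 0.25 and St3gal1 by 0.18. Neu3, another sialidase gene, was under 5 CPM in both lines and fell by 0.77 ± 0.23. Its means were 1.67 ± 0.061 CPM in Parental and 0.97 ± 0.13 CPM in LM2 (edgeR, adjusted p = 0.00636). St6gal1 had 47.6 ± 2.36 CPM in Parental and 39.9 ± 1.57 CPM in LM2 (edgeR, adjusted p = 3.99e-05). St6galnac6 and St3gal6 did not pass, at -0.04 ± 0.04 and 0.06 ± 0.05. St3gal2, counted among the rises, had a log2 fold change of 0.09 ± 0.03 (edgeR, adjusted p = 0.0314). Its call was lost with DESeq2 (adjusted p = 0.0639), upper-quartile scaling and no filter, and without Parental replicate 3 or LM2 replicate 3.

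Glycoproteins that galectins are known to bind formed a list of 24, of which 19 were tested, 11 rose and 7 fell, with a median of 0.25. Spn, which encodes the mucin-like CD43, had 1.501 ± 0.180 CPM in Parental libraries against 25.4 ± 2.49 CPM in LM2 libraries and rose by 4.09 ± 0.10 on the log2 scale (edgeR, adjusted p = 6.03e-18). Mcam, an adhesion molecule that binds galectins 1 and 3, rose from 2.32 ± 0.333 to 17.8 ± 1.33 CPM, and the TGF-beta receptor gene Tgfbr2 from 14.1 ± 0.556 to 24.7 ± 1.83 CPM. Egfr, the EGF receptor gene, fell from 36.1 ± 1.87 to 18.02 ± 0.756 CPM and Bsg, which encodes basigin, from 201 ± 3.29 to 106 ± 1.92 CPM. Lamp1, a lysosomal membrane protein rich in lactosamine, fell from 378 ± 2.37 to 291 ± 6.47 CPM (edgeR, adjusted p = 9.68e-12). Its relative Lamp2 rose from 69.7 ± 1.01 to 91.3 ± 3.92 CPM (edgeR, adjusted p = 1.33e-09). Thy1, at 1.78 ± 0.249 and 1.73 ± 0.398 CPM, did not pass. Fn1, counted among the rises, stood at only 0.487 ± 0.166 CPM in Parental and 0.868 ± 0.302 CPM in LM2. It overlapped between lines (edgeR, adjusted p = 0.0428) and was not tested when 1 CPM or more was required. Its call was lost with DESeq2 (adjusted p = 0.0755), limma voom (0.0657) and no filter. The call was also lost without Parental replicate 1 or 3 or LM2 replicate 2 or 3.

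Genes of the intracellular response to galectins (autophagy receptors, membrane repair and nutrient signalling) numbered 23. Of 22 tested, 9 rose and 6 fell, with a median of 0.02. Calcoco1 and Optn, autophagy receptors, rose by 1.08 ± 0.04 and 0.95 ± 0.11 on the log2 scale, and Rragc, a GTPase of the lysosomal mTORC1 pathway, by 0.69 ± 0.03. Calcoco2, also in the list, was below the filter with 0 counts in Parental and 1 in LM2. Tfeb, a transcription factor of lysosomal genes, fell by 0.51, Bcl2, a survival factor, by 0.35 and the lysosomal transporter Slc38a9 by 0.27. The call for Slc38a9 (edgeR, adjusted p = 0.0203) was lost with DESeq2 (0.0603) and without Parental replicate 1 or 3 or LM2 replicate 2. Tax1bp1, at 272 ± 2.53 and 262 ± 1.24 CPM, did not pass (adjusted p = 0.0543), though it did with limma voom, upper-quartile scaling, no filter or without LM2 replicate 1. Pdcd6ip, encoding ALIX, had a log2 fold change of 0.01 ± 0.02. Trim16 did not pass, at -0.05 ± 0.03 (edgeR, adjusted p = 0.181).

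Lgals7 is a gene of stratified epithelia, and 24 genes of that tissue were listed. Only 5 were tested, 3 rose and 1 fell, and 9 were at 0 in all libraries. The median log2 fold change of the 5 was 2.47. Krt14, a basal keratin, rose from 1.11 ± 0.180 to 8.47 ± 0.571 CPM (edgeR, adjusted p = 8.03e-14). Krt17 rose from 0.0835 ± 0.0566 to 0.473 ± 0.0723 CPM and Dsp, encoding desmoplakin, from 0.0578 ± 0.0154 to 0.471 ± 0.0822 CPM; these 2 were named because the count is small, and requiring 1 CPM or more in 3 libraries leaves 1 of the 3 rises. Krt16 fell from 6.11 ± 0.646 to 4.30 ± 0.438 CPM, and Sfn did not pass. Krt5, the partner of Krt14, summed to 1 count in Parental and 5 in LM2, and Trp63, the master regulator of that tissue, to 0 and 2.

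All 8 interferon reporter genes were tested and all 8 rose, with a median log2 fold change of 1.16. Stat2 and Ifit3 lost their calls without Parental replicate 1 or without LM2 replicate 3, Stat2 without Parental replicate 2 and Ifit3 without Parental replicate 3, and 7 were tested when 1 CPM or more was required. Their rise was already known when the list was made and is not independent evidence. Isg15, a ubiquitin-like protein, rose from 1.25 ± 0.266 to 12.01 ± 3.37 CPM, Irf7, an interferon regulatory factor, from 1.01 ± 0.274 to 9.22 ± 2.48 CPM, and Irf9 from 10.7 ± 0.739 to 24.01 ± 3.84 CPM (edgeR, adjusted p = 4.78e-05, 2.42e-06 and 0.00017). Lgals3bp and Lgals9 are known as interferon-inducible genes. Their own log2 fold changes were 1.08 and 0.06.

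**Figure D4:**
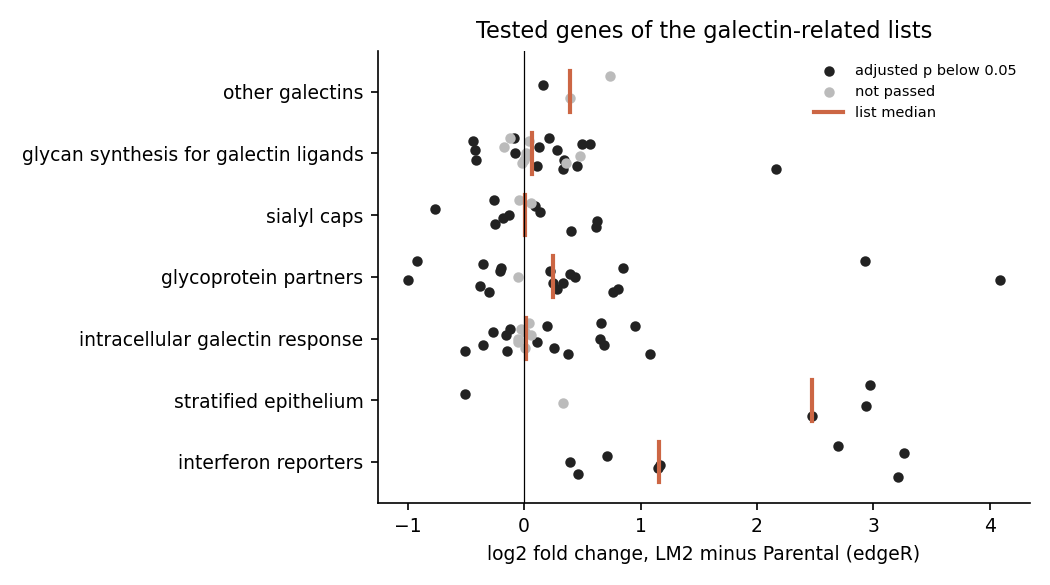
Log2 fold change (LM2 minus Parental, edgeR) of each tested gene of 7 lists, dark where the adjusted p was below 0.05 and grey where it was not, with an orange line at each list's median. The medians of the lists of glycan synthesis, sialyl caps and intracellular response lie at 0.07, 0.01 and 0.02, and that of the interferon reporters at 1.16. That of stratified epithelium, from 5 tested genes, lies at 2.47.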

How the data were processed

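RNA from 3 Parental and 3 LM2 libraries, prepared with an mRNA kit per the labels' protocols, was analysed. The authors deposited estimated counts and TPM for 117486 transcripts per library, with their lengths, made with kallisto 0.46.2 on GRCm39 per the submitters' processing notes. The authors also deposited log2 fold changes per gene, with edgeR 3.32.1 listed in those notes. The sources used here do not give the transcript set or the treatment of strand. Of the transcripts 116408 matched GENCODE M21 (GRCm38, used for names and exons), and the other 1078 held 0.426% to 0.448% of the counts.

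Estimated counts were summed per gene, rounded, filtered with filterByExpr, scaled with TMM and fitted with edgeR 4.0.16 (robust quasi-likelihood, no covariate, R 4.3.3). Adjusted p-values are Benjamini-Hochberg over all 13247 tested genes, 8654 of which had an unadjusted p below 0.05. The SE of a log2 fold change was derived from its F statistic. Alternatives were DESeq2 1.42.0, limma voom 3.58.1, other scalings and filters, a replicate block and leaving out each library. The scripts were tested on simulated data. Pairs of libraries within a line differed by more than counting noise (chi-square per degree of freedom 2.98 to 6.98).

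The members and gene lists were chosen with earlier results of these data known. Named genes are all members and other galectins, and from each other list up to 3 called genes with the largest change in each direction and at least 5 CPM, and up to 2 abundant genes not called. They also include the 5 genes closest to Lgals7, its 2 neighbours on either side and the most abundant marker per list. Some further list and marker genes were named after their values were seen, among them B3gnt7, Neu3, Lamp2, Fn1, Calcoco2 and Trim16. The printed sequences and the counting interval for Lgals7 were chosen after the values were seen.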

Additional observations from a re-analysis of the deposited data

How the results depend on the processing

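The number of called genes was 8272 in the reported fit, 7778 to 8258 when 1 library was left out, and 8250 with the replicate number as a block; same-numbered libraries did not deviate together (correlations of -0.078, 0.045 and 0.015), so the numbers give no pairing. The block changed the call of no galectin. Calls among the galectins, from which nothing is read, numbered 5 to 6 without 1 library. The added call was that of Lgals9 without LM2 replicate 1. Between 63 and 70 list genes were called when 1 library was left out. The Lgals3 log2 fold change of 0.80 was 0.74 on deposited TPM with a pseudocount of 1 or 0.1. That of Lgals7, 8.04, was 5.92 with a pseudocount of 1 and 7.47 with 0.1, against a ratio of mean TPM of 198 with no pseudocount. Lgals9 ranged from -0.01 to 0.12 when 1 library was left out. Leaving out 1 library gave 0.15 to 0.19 for Lgals1, 0.78 to 0.82 for Lgals3, 7.86 to 8.19 for Lgals7, 0.28 to 0.32 for Lgals8 and 0.99 to 1.15 for Lgals3bp.

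Genes that did not pass changed sign in some settings. The log2 fold change of Man2a1 was -0.005 without a filter and ran from -0.003 to 0.03 when 1 library was left out. That of Pdcd6ip was -0.01 with upper-quartile factors and without a filter, and ran from -0.0005 to 0.01. Thy1 ran from -0.25 to 0.07 and Pecam1 from -0.04 to 0.16. Of transcript shares, Lgals3-204 differed by 2.52 percentage points on TPM. Leaving out 1 library gave -3.77 to 3.97 points for Lgals8-201 and -0.44 to 0.10 for Lgals3bp-201. The causes were not tested. Of 52 other genes named by rule, 48 were tested in all 13 other gene fits, and 41 of these kept their direction and side of the threshold throughout. The Parental level of Lgals7 rests on 10 counts, which limits the precision of its ratio.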
